A study of Coturnix japonica with 42 samples.

Results

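A group of 7 genes of the thyrotropin and thyroid hormone pathway were followed on arrays of the quail mediobasal hypothalamus: TSHR, the receptor of thyrotropin, GNAS, which encodes the stimulatory G protein alpha subunit, the thyroid hormone receptors THRA and THRB, the retinoid X receptors RXRA and RXRG, and the corepressor NCOR1. The members were taken as every probe set whose symbol in the platform annotation is one of these names. All 7 genes, of 13009 named ones, were on the array, with 22 of the 38439 probe sets that are not controls. Of these, 20 probe sets of 6 genes passed the filter on low signal and were tested among 32057, while THRA, with a single probe set, did not pass.

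The birds were male Japanese quail, 8 weeks old, that had been held for 4 weeks on short days with 6 h of light and 18 h of darkness. They were then transferred to long days with 20 h of light and 4 h of darkness, and tissue was collected over 1 short day and the first 2 long days. Each of the 21 time points had 6 birds, pooled by 3 into 2 arrays, and every n below is a number of arrays, that is of pools. The 12 short-day arrays covered times 2, 6, 10, 14, 18 and 22 h, the 18 arrays of the first long day covered times 26 to 46 h, and the 12 of the second long day covered times 50 to 70 h. Times were taken to be hours counted from lights-on of the short day, a reading that the labels do not spell out. The probes were designed for chicken, and no detection calls were used, so a dim probe set gives no evidence that its gene is silent in quail.

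Thyrotropin made in the pars tuberalis is known to act on receptors in the ependymal cells, tanycytes included, that line the third ventricle of birds and mammals. The receptor couples through the stimulatory G protein to adenylyl cyclase and cyclic AMP, and its activation raises DIO2, the enzyme that makes active thyroid hormone, and lowers DIO3, the enzyme that degrades it. The hormone acts on nuclear receptors that bind DNA with a retinoid X receptor as partner. Without hormone these receptors recruit NCOR1, which brings histone deacetylase to the gene.

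The arrays differed in brightness before scaling. The 2% trimmed mean of the deposited signal had a median of 34.2 on the short day, 33.5 on the first long day and 28.1 on the second long day, and each array was scaled to a common mean. Replicate arrays of a time point correlated with a median r of 0.897 on the short day, 0.897 on the first long day and 0.875 on the second, with the lowest r, 0.812, at time 62 h. The 3′ to 5′ ratio of GAPDH had medians of 1.195, 1.192 and 1.198 on the 3 days. That of actin was higher, with medians of 7.65, 7.72 and 7.88. Among cell type markers, all 8 neuronal markers were tested, with a median summed signal of 19600 on the short day. The tanycyte and ependymal markers FOXJ1 and RAX matched no symbol in the platform annotation and were not analysed here. Of the other 8, DIO2 and VIM rose on the second long day, and of 8 tested pituitary markers TSHB and CGA rose, where 2.08% of all genes passed. DIO2, TSHB and CGA were already known to move in these samples, so these counts are not independent evidence about the markers. None of the astrocyte, oligodendrocyte and erythrocyte markers tested passed on that day. SYT1 was the only one of 8 neuronal markers to pass, a call lost under 44 of 63 other settings. Of 4 choroid plexus markers tested 3 had positive differences and TTR passed as lower, with a mean of 65.5 ± 66.9 (SD, n = 12) on the short day and a call lost under 18 of 63 other settings. The arrays measured whole tissue, in which fewer cells of a type and less RNA per cell cannot be told apart.

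**Figure D1:**
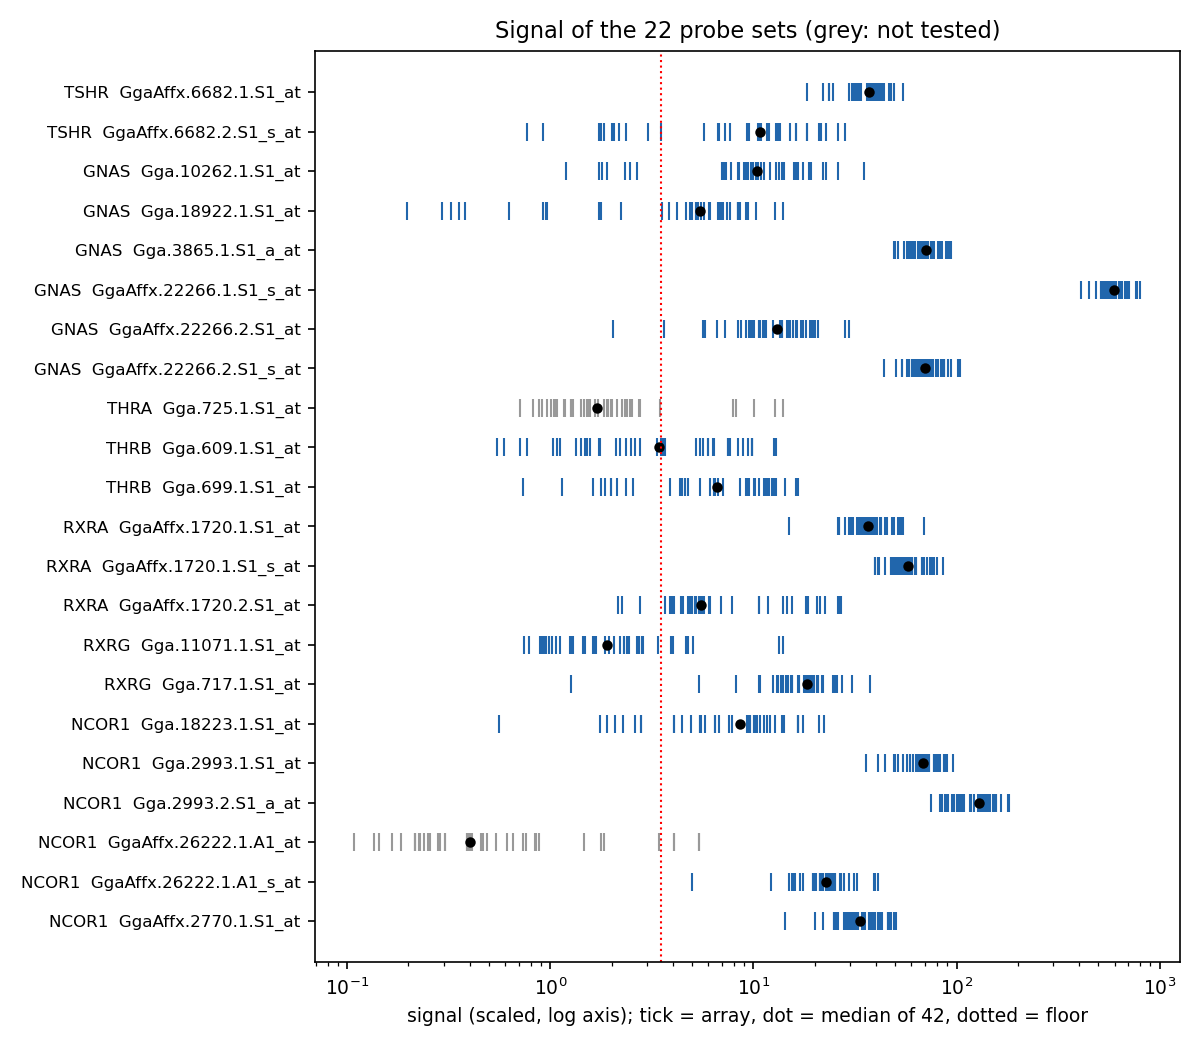
Signal of the 22 probe sets on 42 arrays (log axis; each tick is an array, each dot the median, the dotted line the floor of 3.51, grey sets not tested). Distances between rows are not differences in gene level, since probe sets differ in how they bind; the THRA set lay at or below the floor on 37 of 42 arrays, while 1 set of TSHR, 3 of GNAS, 2 of RXRA and 4 of NCOR1 lay above it on all 42.

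The question put to each gene was whether its signal differed between the short day and the long days that follow. Of the 20 tested probe sets, 2 passed an adjusted p of 0.05 when the second long day was set against the short day, both of them of GNAS and both lower. Over all probe sets 1.37% passed in either direction and 0.970% were lower. At an unadjusted p under 0.05, 4 of the 20 passed, against 11.9% of all probe sets. The 20 differences split into 11 positive and 9 negative with a median of 0.03 on the log2 scale, and the median over all tested probe sets was 0.04. A dim GNAS set and a dim RXRG set, both positive, passed the filter only through arrays of the second long day. The filter thus favoured a positive sign for them. Adjusted p-values are from limma with Benjamini-Hochberg adjustment over all 32057 probe sets.

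**Figure D2:**
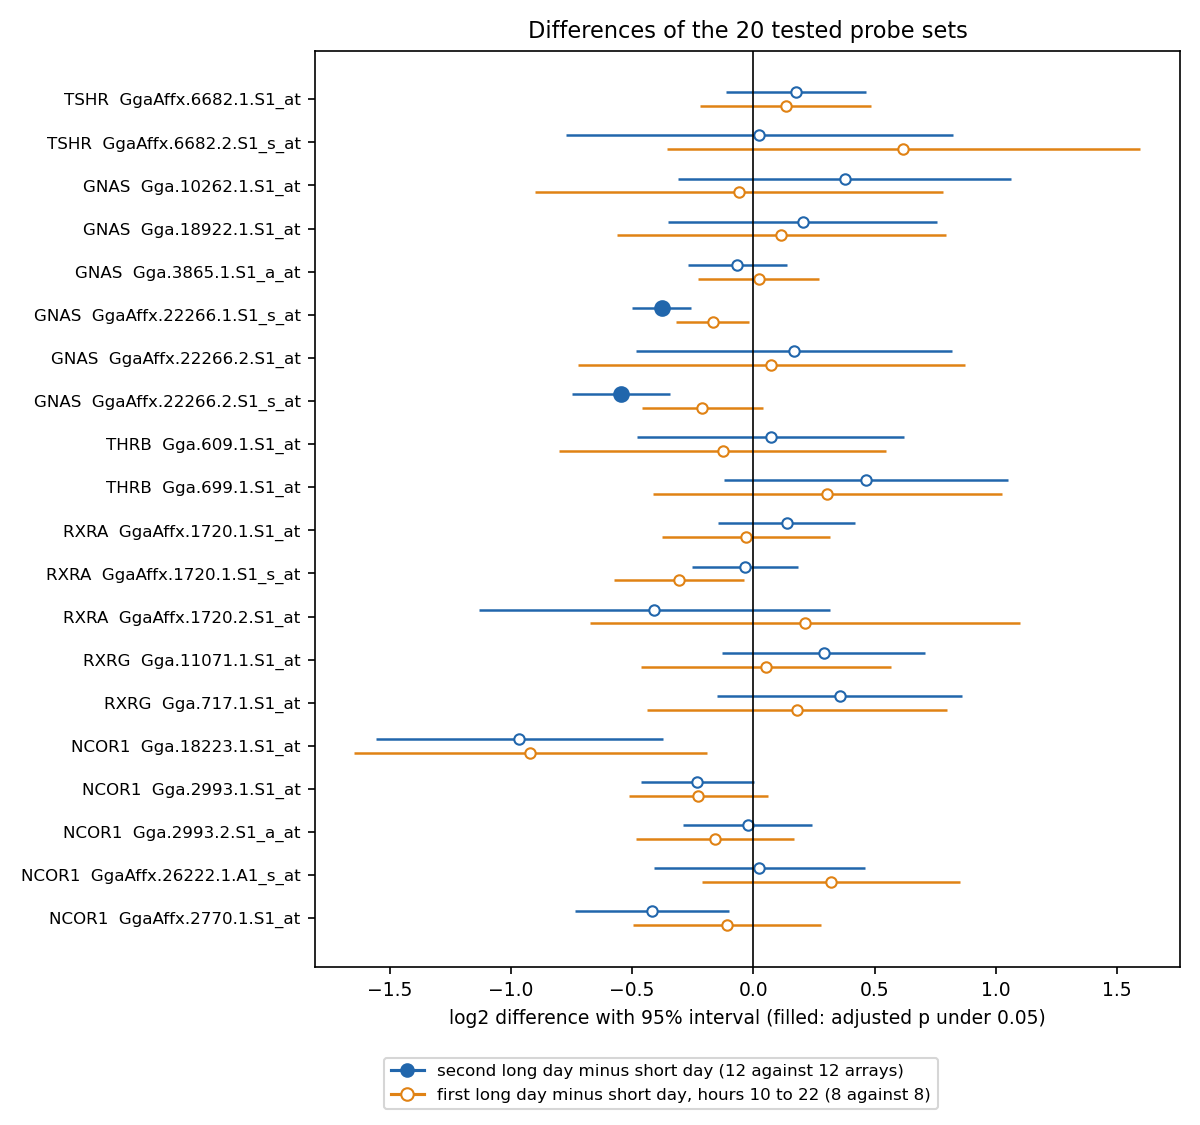
Log2 difference from the short day with its 95% interval for the 20 tested probe sets, for the second long day (blue, 12 against 12 arrays) and for hours 10 to 22 of the first long day (orange, 8 against 8); filled points passed an adjusted p of 0.05. The filled points are the brightest GNAS set at -0.38 and the dimmer called GNAS set at -0.55, and each of the other 18 intervals of the second long day belongs to a set that did not pass.

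TSHR, the thyrotropin receptor, was read by the brighter of its 2 probe sets, with a mean signal of 36.0. The signal ran from 18.3 to 43.1 with a median of 33.4 on the 12 short-day arrays, from 22.0 to 54.8 with a median of 37.5 on the 18 arrays of the first long day, and from 30.5 to 46.4 with a median of 38.1 on the 12 arrays of the second long day. The 3 ranges overlapped. The mean was 33.2 ± 6.83 (SD, n = 12) on the short day and 37.0 ± 5.16 (SD, n = 12) on the second long day, a 1.13-fold ratio in the model with a 95% interval from 0.925 to 1.38 (adjusted p = 0.682, limma), higher at 4 of 6 hours. Averaged over hours 10 to 22 of the first long day, TSHB transcripts were higher than at those hours of the short day. Single hours of TSHB are not given here. In the same average the log2 difference of TSHR was 0.13 with SE 0.17 (adjusted p = 0.979, limma).

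The lowest TSHR time point was 14 h of the short day, with signals of 24.7 and 18.3 on its 2 arrays. The highest was 26 h, at hour 2 of the first long day and lit on both days by the reading used here, with 41.3 and 47.5. These time points, picked as the extremes of 21, differed by 1.06 on the log2 scale. The pooled SD between replicates was 0.32, a spread of single arrays that does not measure the range expected among 21 means. Because the short-day level at 14 h was low, the difference from it at the same hour was 0.75 at 38 h and 0.93 at 62 h on the log2 scale, and neither passed the adjustment (limma adjusted p of 1 and 0.338). The 2 arrays at 38 h gave 54.8 and 23.5. The dimmer TSHR probe set was at the floor on 11 of 42 arrays with a mean signal of 10.7, and its ratio of the second long day to the short day was 1.02 with an interval from 0.585 to 1.77.

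GNAS, whose product carries the signal of the thyrotropin receptor and of many other receptors, had lower signal on the second long day on 2 of its 6 probe sets. The other 4 did not pass, with 1 negative and 3 positive differences, and the mean over all 6 differed by -0.04 on the log2 scale. The brightest of its 6 probe sets, with a mean signal of 604, ran from 568 to 805 with a median of 683 on the short day. It ran from 514 to 702 with a median of 597 on the first long day and from 410 to 608 with a median of 550 on the second. Of the 12 arrays of the second long day, 8 lay below the lowest short-day array, and 11 of the 12 short-day arrays lay above the highest of the second long day.

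The mean of that GNAS set was 691 ± 66.7 (SD, n = 12) on the short day, 594 ± 44.5 (SD, n = 18) on the first long day and 533 ± 58.9 (SD, n = 12) on the second. The second long day was lower than the short day by 0.38 on the log2 scale, that is log2 -0.38 with SE 0.06, a ratio of 0.769 with an interval from 0.706 to 0.838 (adjusted p = 2.33e-04, limma). The difference was negative at 6 of 6 hours. Among the 530 tested probe sets within 0.5 log2 units of the same brightness, the median difference between these days was -0.07. Of these 530, 24 (4.53%) had a difference as low as that of this GNAS set or lower. Among neighbours of their own brightness, the share was 0.693% for the other GNAS set that passed. It was 0.154% and 3.28% for NCOR1 sets that did not pass, and above 4.53% for the remaining tested member sets. The paired time points show the course of the signal of the brightest GNAS set. It stood at 740 at 2 h and 740 at 6 h of the short day, at 592 and 621 at the same hours of the first long day, and at 556 and 539 on the second. On the first long day no light had yet been added at hour 2, by the reading of time used here. Hour 6 was where the short-day light ended. The design does not separate light regime from day of collection, and their parts in this course cannot be told apart. The lowest time point was 62 h, with 513 and 410 on its 2 arrays.

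Another GNAS set, with a mean signal of 72.2, also passed and is named the dimmer called set here. It ran from 67.6 to 104 with a median of 85.7 on the short day, from 56.8 to 90.8 with a median of 69.2 on the first long day, and from 43.8 to 73.1 with a median of 59.3 on the second. Of the 12 arrays of the second long day, 10 lay below all short-day arrays. The means of the short and second long day were 86.6 ± 12.2 and 59.4 ± 8.43 (SD, n = 12 each), a log2 difference of -0.55 with SE 0.10 and a ratio of 0.685 with an interval from 0.595 to 0.789 (adjusted p = 0.00148, limma), negative at 6 of 6 hours. Both GNAS sets correlated with r = 0.819 over the 21 time-point means, which come from the same arrays. Their probe set names carry the same root number, as does that of a dim GNAS set with a positive difference of 0.17. Whether the called sets share target sequence with each other, or also match transcripts of other genes, was not tested. They are not taken as independent readings of the gene.

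The arrays of time 62 h correlated least with each other and hold the lowest GNAS signal, and the second long day was the dimmest before scaling. Without both arrays of time 62 h, and of 14 h as its partner, the GNAS log2 differences were -0.36 (adjusted p = 0.00123, limma) and -0.53 (adjusted p = 0.00329, limma). With array brightness as a covariate they were -0.39 (adjusted p = 0.0231, limma) and -0.42 (adjusted p = 0.218, limma), so that the call of the dimmer set was lost and that of the brightest was not. With the values as deposited, in which the median of all probe sets itself fell by 0.19, they were -0.64 and -0.81. Beside this change, the summed signal of the 8 tanycyte and ependymal markers had a median of 2281 (range 1708 to 2497) on the short day and 3630 (range 2696 to 6245) on the second long day. VIM made up most of that sum, and without it the medians were 500.2 (range 306 to 611) and 726 (range 300.2 to 914). The 8 pituitary markers summed to 807 (range 355 to 1375) and 1484 (range 827 to 1981), and without CGA to 222 (range 195 to 299.9) and 263 (range 207 to 377). The sum without VIM still held DIO2, with means of 46.7 on the short day and 142 on the second long day. That without CGA still held TSHB, with means of 5.60 and 42.6 on these days. The 8 neuronal markers summed to 19600 (range 18462 to 20609) and 20735 (range 16358 to 23059). The part of these shifts in the GNAS result was not tested.

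**Figure D3:**
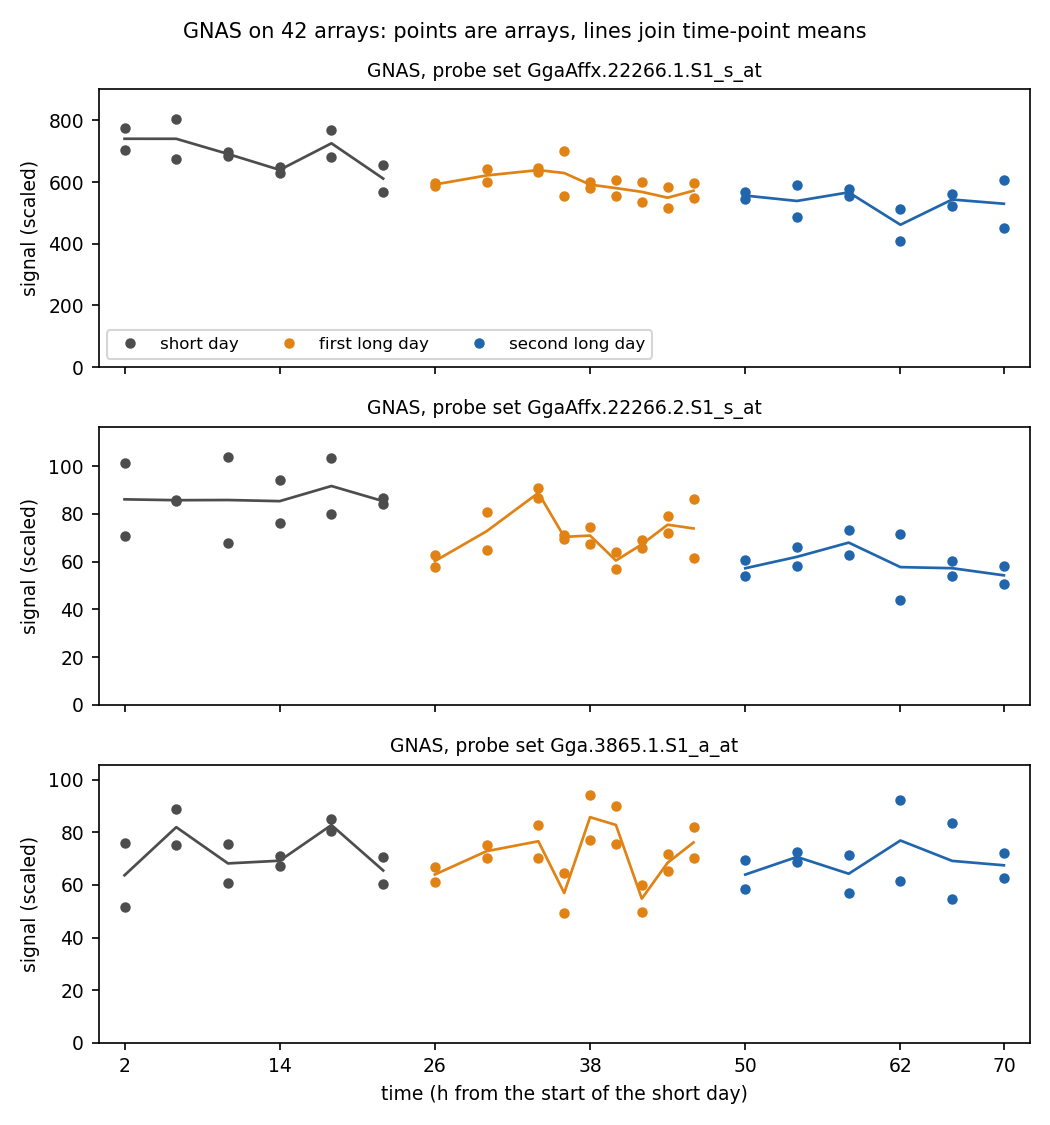
Scaled signal of 3 GNAS probe sets by time in h (0 is the start of the short day); points are arrays (2 per time point) and lines join time-point means within a day. The upper 2 sets have means of 691, 594 and 533 and of 86.6, 71.1 and 59.4 on the 3 days. The day means of the lowest panel are 71.9, 70.9 and 68.7, and its time-point means run from 54.8 to 85.8.

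The remaining bright GNAS probe set, with a mean signal of 70.6, did not pass. It ran from 51.5 to 88.9 with a median of 73.1 on the short day, from 49.4 to 94.4 with a median of 70.4 on the first long day and from 54.8 to 92.2 with a median of 69.0 on the second. The ranges of the 3 days overlapped, and the ratio of the second long day to the short day was 0.956 with an interval from 0.830 to 1.10 (adjusted p = 0.861, limma). The change within arrays was compared between the 3 bright GNAS sets after their values had been seen, by an exact two-sided permutation test that exchanged the day of arrays within each hour (46656 regroupings, 12 against 12 arrays, adjusted over 3 pairs). The brightest set fell by 0.31 more than the uncalled bright set on the log2 scale (adjusted permutation p = 0.00322). The dimmer called set fell by 0.48 more than the uncalled one (adjusted permutation p = 0.000129, whose raw value of 4.29e-05 is the smallest the test can give). The 2 called sets differed from each other by 0.17 with a permutation p of 0.0807. The adjustment over 3 pairs does not cover the choice of this comparison after the values had been seen.

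The other 3 GNAS sets were dim. They had mean signals of 11.7, 5.28 and 13.4 and lay at the floor on 7, 12 and 1 of 42 arrays. Their log2 differences of the second long day from the short day were 0.38, 0.20 and 0.17, all positive and none past the threshold (limma adjusted p from 0.724 to 0.895). The set at 0.20 exceeded the array median on 2 of 42 arrays, at 50 h and 66 h. It entered the tests only through the second long day, so its sign is in part set by the filter.

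On the first long day none of the 20 probe sets passed at hours 10 to 22, against 0.0561% of all probe sets, and 3 of 20 had an unadjusted p under 0.05 (limma), against 5.63% of all. The GNAS sets called on the second long day differed by -0.17 and -0.21 on the log2 scale (limma adjusted p of 0.850 and 0.915). None passed at hours 2 and 6 of that day, where 0.00312% of all probe sets did. At an unadjusted p under 0.05, 3 of the 20 passed (limma), against 5.32% of all probe sets. Under the reading of time used here hour 2 is lit on both days and hour 6 is the end of the light on the short day. The GNAS log2 differences were -0.28 and -0.37 (limma adjusted p of 0.831 and 0.926).

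Another 3 contrasts were added after the results had been seen. At hours 2 and 6 of the second long day, compared with those hours of the short day, none of the 20 sets passed, against 0.125% of all probe sets, with 3 at an unadjusted p under 0.05, against 7.64% of all, and the brightest GNAS set differed by -0.44 (adjusted p = 0.0963, limma). At hours 10 to 22 of the second long day, compared likewise, where 0.611% of all probe sets passed, both GNAS sets passed with log2 differences of -0.35 (adjusted p = 0.0136, limma) and -0.56 (adjusted p = 0.0188, limma). Over all 6 shared hours of the first long day, no member passed, against 0.0842% of all probe sets, 4 members had an unadjusted p under 0.05, against 6.41% of all, and the brightest GNAS set differed by -0.21 with the sign the same at 6 of 6 hours (adjusted p = 0.395, limma). These comparisons share the short-day arrays.

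The second long day was also set against the first. None of the 20 probe sets passed, against 0.0905% of all probe sets, and the 2 with an unadjusted p under 0.05 were GNAS sets, against 7.86% of all probe sets. The brightest differed by -0.17 with SE 0.06 (adjusted p = 0.395, limma) and the dimmer called set by -0.28 with SE 0.10 (adjusted p = 0.405, limma), each negative at 6 of 6 hours. In the order of its 21 time points, 5 of the 7 highest GNAS means belonged to the short day and 6 of the 7 lowest to the second long day. Neighbours in that order differed by more than the pooled replicate SD of 0.13 at 1 of 20 steps.

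THRA, the alpha thyroid hormone receptor, was read by a probe set near the floor that was not tested. This THRA set had a mean signal of 2.73 and exceeded its array's median on 1 of 42 arrays. It lay at or below the floor of 3.51 on 11 of 12 short-day arrays, 17 of 18 arrays of the first long day and 9 of 12 of the second. The highest single signal was 14.0, on an array of 10 h whose partner gave 2.32.

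THRB, the beta receptor, was dim on both of its probe sets. The brighter THRB set, with a mean signal of 7.39, ran from 1.62 to 13.0 with a median of 5.08 on the short day, from 0.731 to 12.5 with a median of 6.55 on the first long day and from 1.14 to 16.6 with a median of 9.61 on the second. All 3 ranges overlapped, and the set was at the floor on 10 of 42 arrays. The second long day stood at 1.38 times the short day with an interval from 0.919 to 2.07 (adjusted p = 0.562, limma), positive at 5 of 6 hours. Its time-point means ran from 2.11 at 6 h to 15.3 at 70 h, where the 2 arrays gave 16.3 and 14.3. The other THRB set was at the floor on 22 of 42 arrays and had a log2 difference of 0.07 with SE 0.27.

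RXRA, a partner of both thyroid hormone receptors, had 2 probe sets above the array median on all 42 arrays. The brightest RXRA set ran from 41.5 to 86.3 with a median of 59.9 on the short day, from 39.8 to 77.6 with a median of 56.7 on the first long day and from 47.8 to 79.8 with a median of 55.5 on the second. The ranges overlapped, with a ratio of the second long day to the short day of 0.975 and an interval from 0.838 to 1.13 (adjusted p = 0.939, limma). At hours 10 to 22 of the first long day the log2 difference was -0.31 with SE 0.13, with an unadjusted p of 0.0263 and an adjusted p of 0.844 (limma).

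The other bright RXRA set had means of 37.7 ± 13.6 (SD, n = 12) on the short day and 40.0 ± 9.47 (SD, n = 12) on the second long day, a ratio of 1.10 with an interval from 0.904 to 1.34. On the short day its signal was highest at 10 h, with 68.8 and 52.3 on the 2 arrays, and lowest at 18 h, with 26.2 and 15.04. This RXRA set had the lowest p of the members for a change with hour on the short day, an unadjusted p of 0.00207 and an adjusted p of 0.663 (limma). Both RXRA sets correlated with r = 0.07 over the 21 time-point means, and the first was highest on the short day at 22 h, so that the hour of the peak differed between probe sets of this gene. The third RXRA set had a mean signal of 9.34 and a log2 difference of -0.41 with SE 0.36.

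RXRG, another retinoid X receptor, ran on the brighter of its 2 probe sets from 1.26 to 25.2 with a median of 16.02 on the short day, from 5.40 to 30.7 with a median of 18.7 on the first long day and from 10.7 to 37.7 with a median of 19.1 on the second. The ranges overlapped, and the log2 difference of the second long day from the short day was 0.36 with SE 0.25 (adjusted p = 0.620, limma). On the log2 scale the highest RXRG mean was at 44 h, with 18.6 and 30.7 on the 2 arrays. The highest linear mean was at 62 h, where they gave 13.0 and 37.7, and the lowest on both scales was at 14 h, where they gave 1.26 and 10.8. The dimmer RXRG set was at the floor on 35 of 42 arrays. It exceeded the array median on 2 arrays, at 50 h and 66 h, and so entered the tests only through the second long day.

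**Figure D4:**
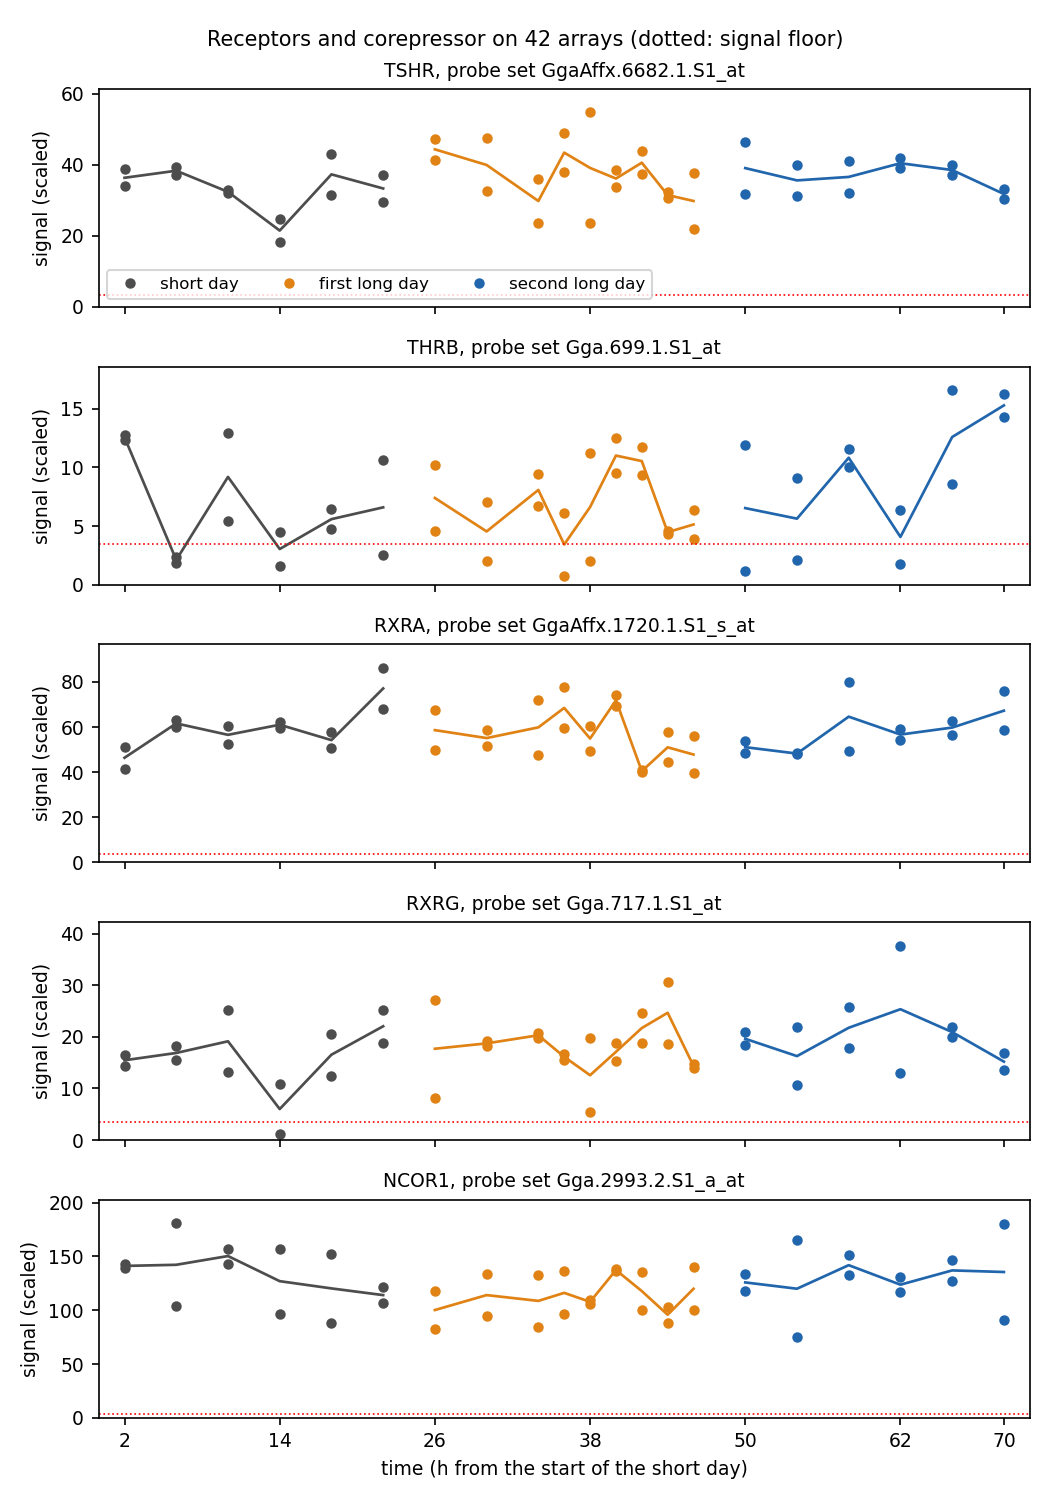
Scaled signal of the brightest probe set of TSHR, THRB, RXRA, RXRG and NCOR1 by time in h (0 is the start of the short day); points are arrays (2 per time point), lines join time-point means within a day and the dotted line is the floor of 3.51. The days overlap in every panel, and the spread of the 2 arrays at a time point is often as wide as the distance between days, as for RXRG at 62 h (13.0 and 37.7).

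NCOR1, the corepressor, had 6 probe sets, of which 5 were tested. The brightest NCOR1 set ran from 88.4 to 181 with a median of 141 on the short day, from 82.7 to 140 with a median of 108 on the first long day and from 75.1 to 180 with a median of 132 on the second. These NCOR1 ranges overlapped, with a ratio of the second long day to the short day of 0.984 and an interval from 0.818 to 1.18 (adjusted p = 0.971, limma). Its log2 difference from the short day was -0.40 with SE 0.23 at hours 2 and 6 after the transfer (adjusted p = 0.958, limma).

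Another 3 NCOR1 sets had negative differences on the second long day that did not pass the threshold. The dimmest of these had means of 11.3 ± 5.16 on the short day, 9.04 ± 5.39 on the first long day and 5.74 ± 4.50 on the second (SD, n = 12, 18 and 12), and lay at the floor on 1, 2 and 5 arrays of these days. Its log2 difference was -0.96 with SE 0.29, with an unadjusted p of 0.00218 and an adjusted p of 0.1003 (limma). The next NCOR1 set in brightness had means of 39.4 ± 6.38, 34.5 ± 8.61 and 30.2 ± 8.17 on the 3 days, and its difference was -0.42 with SE 0.16, negative at 6 of 6 hours (adjusted p = 0.228, limma). The brightest of these had means of 77.2 ± 12.8, 63.8 ± 10.45 and 66.4 ± 14.4, and its difference was -0.23 with SE 0.12 (adjusted p = 0.433, limma). The fifth tested NCOR1 set differed by 0.03, and the untested one was above the array median on 0 of 42 arrays. The mean over the 5 tested NCOR1 sets differed by -0.32 on the log2 scale, with no test. The dimmest tested NCOR1 set passed under 4 of 62 other settings.

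At single times, none of 300 pairs of a member probe set and a long-day time passed over the 15 long-day times, where 0.0218% of all such pairs passed. The lowest adjusted p among them was 0.230 (limma), for the brightest GNAS set at 62 h. Unadjusted p-values under 0.05 were held by between 0 and 6 of the 20 sets per time, with 6 at 62 h, where 10.2% of all probe sets had one. Without the first array of 62 h, 3 sets passed at that time on the remaining array alone, taken to vary like the other time points. They were both called GNAS sets and the brighter RXRG set, and 1194 probe sets passed in all. Without the second array of 62 h, 13 probe sets passed in all and no member did.

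No member changed with hour of day past the threshold. For the short-day profile 0 of 20 sets passed, against 0.0624% of all probe sets, with 1 at an unadjusted p under 0.05, against 4.31% of all. For the first long day 0 of 20 passed, against 0.0624%, and for the second long day 0 of 20, against 0.0499%, with 0 members at an unadjusted p under 0.05 on both days, against 4.21% and 9.31% of all. The change of profile between the second long day and the short day passed for 0 of 20 sets, against 0.00312% of all, with 0 at an unadjusted p under 0.05, against 5.78% of all. The test of any difference among the 21 time points passed for 0 of 20 sets, against 0.221%, and both called GNAS sets had unadjusted p-values under 0.05 in it, as did 6.95% of all probe sets (limma adjusted p of 0.371 and 0.685).

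Genes of G protein signalling, not all of which act through cyclic AMP, and of the cyclic AMP pathway were read by their brightest probe set. Of 47 genes in a list of G protein subunits, adenylyl cyclases, protein kinase A subunits and regulators, 39 were tested. On the second long day, relative to the short day, 3 were lower and 0 higher. Of all 12311 genes 2.08% passed, 197 as lower and 59 as higher. Of the 39 differences 25 were negative, with a median of -0.12, against 0.01 over all genes. The day difference varied with brightness, with a median of -0.07 among probe sets as bright as the brightest GNAS set. Near the brighter THRB set it was 0.10. No brightness-matched median was taken for this list. GNA11, an alpha subunit that couples to phospholipase C, had means of 356 ± 52.1 and 278 ± 29.3 on the 2 days (SD, n = 12 each), a log2 difference of -0.35 (adjusted p = 0.00337, limma). GNAL, the olfactory relative of GNAS, differed by -0.26 (adjusted p = 0.0217, limma), with means of 467 ± 49.9 and 390 ± 34.5. PRKACB, a catalytic subunit of protein kinase A, differed by -0.29 (adjusted p = 0.0327, limma), with means of 469 ± 55.3 and 385 ± 52.4. Under 63 other settings PRKACB lost its call 24 times, GNAL 16 times and GNA11 2 times.

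At hours 10 to 22 of the first long day 1 of the 39 genes passed, where 0.106% of all genes did. This list was chosen with earlier results of these data known, so its counts are not independent evidence. CREM, a transcription factor that responds to cyclic AMP, rose 1.78-fold on its brightest probe set (adjusted p = 1.02e-06, limma). In the second against the first long day CREM was lower by 0.36 on the log2 scale, that is log2 -0.36 (adjusted p = 0.0465, limma), the only one of the 39 to pass, where 0.171% of all genes did, and a call lost under 39 of 56 other settings.

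Coregulators and hormone-responsive genes were read in the same way. Of 30 other nuclear receptor coregulators 27 were tested, and MED14, a subunit of the Mediator complex, was the only one to pass on the second long day, at log2 -0.46 (adjusted p = 0.0172, limma), with a list median of -0.01, where 2.08% of all genes passed. Of 16 other partners of retinoid X receptors and retinoid receptors 11 were tested and 0 passed in any of the 4 comparisons between days, where 2.08%, 0.106%, 0.00812% (hours 2 and 6 of the first long day) and 0.171% of all genes did. Of 21 genes known to respond to thyroid hormone in brain 13 were tested, and on the second long day DIO2 rose while DIO3 and RORA fell, 3 of 13 where 2.08% of all genes passed. DIO2 had means of 46.7 ± 11.97 and 142 ± 33.2 and DIO3 of 362 ± 106 and 12.9 ± 6.40 on the short and second long day (SD, n = 12 each), and RORA, a nuclear receptor that is a thyroid hormone target in rodent brain, differed by -0.27 (adjusted p = 0.0338, limma). DIO2, DIO3, TSHB and CGA were already known to move in these samples. They are not independent evidence of a direction, or that genes of the list passed more often than all genes. RORA, the other gene of the list to pass, lost its call under 22 of 63 other settings.

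Genes with the most similar course over the 21 time-point means were named for each member from all tested probe sets of above-median signal with 1 symbol, as a description over means that share arrays. For the brightest GNAS set these were KLF6 (r = 0.896), SLC25A3 (r = 0.893) and KCNC1 (r = 0.889), and over the 42 single arrays the same pairs gave r of 0.785, 0.651 and 0.734. The highest r was 0.811 for TSHR with HSPB9, 0.784 for NCOR1 with INTS6L, 0.820 for RXRG with CMTM3, 0.725 for RXRA with AFF1 and 0.719 for THRB with P4HB. Each of these was picked as the highest over the time-point means among 12983 to 12987 candidates. Over single arrays these r fell to 0.341, 0.441, 0.336, 0.302 and 0.376. There the same genes ranked 260, 41, 313, 263 and 108 among the candidates for their member.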

How the data were processed

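The 42 arrays are described by signal intensity for each probe set, on a linear scale, which the authors produced with GCOS 1.2 per the submitters' processing notes. The scaling target is not given in the sources used here, and neither are detection calls. Of 38535 probe sets the 96 controls were set aside, and 0 columns stayed unused. The deposited arrays had 2% trimmed means from 25.15 to 40.75 and were brought to 32.42 with factors from 0.796 to 1.29. Lower signals were raised to a floor of 3.51, the median over arrays of each array's 25th percentile, before log2. A probe set entered the tests if at least 2 arrays held it above their median.

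One mean per time point was estimated from all arrays in limma 3.58.1 (R 4.3.3) with empirical Bayes and a variance trend, which left 21 residual and a median of 14.81 prior degrees of freedom. Tests are two-sided with a Benjamini-Hochberg threshold of 0.05 across the 32057 probe sets, and intervals cover 95%. With 2 arrays per time point, their number limits the precision. Platform annotation gave 27168 probe sets 1 symbol, 177 several and 11094 none. All 7 member symbols are also in RefSeq's quail annotation. Sequences and coordinates were not used here.

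Named are all probe sets of the members, list genes past the threshold (up to 4 per list and comparison, by p) and the 3 genes most like each member. The members, lists and contrasts were chosen with earlier results of these data known. Alternatives were other scalings, floors, filters and variance models, a replicate block, a brightness covariate, only the arrays compared, and each array, each hour or time 62 h left out.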

Additional observations from a re-analysis of the deposited data

How the results depend on the processing

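The count of 2 member probe sets that passed on the second long day was 5 with the values as deposited and 1 with the brightness covariate, and 2 to 3 without 1 array. With the values as deposited the count was 2 in the second against the first long day (both GNAS sets, log2 -0.37 and -0.48) and 1 in the test of any time point (the brightest GNAS set). For single times it was 0 to 3 without 1 array. The brightest GNAS set passed under 63 of 63 alternatives (log2 -0.64 to -0.30) and the dimmer called GNAS set under 62 of 63 (-0.81 to -0.42). Leaving out an array of the first long day, or changing the filter or variance model, cannot move these differences, only their error and adjusted p. The dimmest tested NCOR1 set passed as deposited (-1.16), with median centring (-1.02), with cyclic loess (-1.07, added after seeing the data) and without the first array of 70 h (-1.15), and 2 other NCOR1 sets as deposited (-0.49 and -0.68). Of 80 member differences 2 were called, and over 4588 recomputed values 1 call was lost, 8 were gained and 0 called values changed sign. Replicate numbers did not pair the arrays (deviations of 210 pairs of time points correlated between -0.04 and 0.04), and with the replicate block the count of the second long day stayed at 2. Of the list and marker genes on the second long day, SYT1 lost its call under 44, PRKACB under 24, RORA under 22, TTR under 18, GNAL under 16, MED14 under 11 and GNA11 under 2 of 63 alternatives, and CREM in the second against the first long day under 39 of 56. Counts over all probe sets ran from 149 (no variance trend) to 3510 (as deposited) against 438 for the second long day, from 9 (no variance trend) to 945 (as deposited) against 29 for the second against the first, from 0 (no variance trend) to 14 (as deposited) against 1 for hours 2 and 6, from 3 (only the arrays compared) to 29 (no filter) against 20 for the short-day profile, from 11 (no variance trend) to 31 (no filter) against 20 for the profile of the first long day, from 2 (only the arrays compared) to 546 against 16 for that of the second, from 1 to 123 against 1 for the change of profile, and from 32 (no variance trend) to 197 (as deposited) against 71 for any time point. The counts of 546 and 123 are without the first array of 62 h. The causes of these shifts were not tested. The profile of the second long day was not recomputed without time 62 h. Probe sets at the floor limit THRA and THRB.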
